A study of Mus musculus with 6 samples.

Results

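Heat shock proteins are molecular chaperones that bind unfolded or newly made proteins and help them fold, travel or be degraded. The HSP70 proteins work in a cycle driven by ATP, in which J-proteins, named for the J domain they share, bring clients and start ATP hydrolysis, and nucleotide exchange factors such as the HSP110 proteins and Bag3 release the client. Hsf1 is the transcription factor that switches the inducible members on when unfolded protein accumulates, and in a blood-forming fetal liver the system also serves cells with a high load of new protein.

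The genes described here are the heat shock proteins and J-proteins of the array, with the transcription factors Hsf1 and Hsf2 and the co-chaperone Bag3. They were taken by symbol: names in the probe table that begin with Hspa, Hspb, Hspd, Hspe, Hsph, Hsp90a, Dnaja, Dnajb or Dnajc, without the endoplasmic reticulum chaperones Hspa5, Dnajb9, Dnajb11 and Dnajc3. The symbol Dnajc3a, a RefSeq synonym of Dnajc3, was left out with it. Of 60 such symbols 41 had a probe detected at a detection p below 0.05 on at least 3 of the 6 arrays, and the brightest probe stood for the gene, among 12833 genes kept in all. The other 19 symbols, among them Hspa1b, Dnaja1, Hspa14 and Dnajc9, passed on no probe. The list is not purely cytosolic: 8 of the 41 genes are mitochondrial chaperones or J-proteins, Dnajc1 and Dnajc10 act in the endoplasmic reticulum, and Dnajb12 sits in its membrane with the J domain facing the cytosol.

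RNA came from fetal livers of mouse embryos of the mixed strain C57/Bl6:129Sv at stage E13.5, with 3 arrays per group. The double transgenic livers (R26-LSL-KITD816V:Vav-iCre) carried a Cre-activated, constitutively active form of the receptor KIT in the ROSA26 locus together with Cre driven by Vav, a gene of blood cells, so Cre is not meant to act in hepatoblasts. Controls were single transgenic: replicate 1 carried Vav-iCre, and replicates 2 and 3 carried R26-LSL-KITD816V, so all 6 livers carried at least 1 of the transgenes. The labels do not say whether each array held a separate liver, so p-values reflect only how these arrays vary, and some of that may be technical. The 6 arrays shared 1 chip, placed in the order of the groups, so chip position and group cannot be told apart. Each array detected 17249 to 17873 of its 45281 probes. Levels are normalized log2 intensities, changes are double transgenic minus control, and the threshold is a Benjamini-Hochberg adjusted p below 0.05 over all 12833 genes in limma.

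The sequences that follow show where the heat shock motif lies in front of 4 members, since this is the element that Hsf1 binds. Hspa1a and Hspb1 are shown as heat-inducible genes and Dnajb6 and Hspe1 for their longer elements. The motif was searched as GAANNTTC and TTCNNGAA, which are each their own reverse complement and so cover both strands, in the 250 bases before each RefSeq start site (GRCm38.p6). Matches can overlap each other, and 2 overlapping matches make a three-unit element (GAANNTTCNNGAA or TTCNNGAANNTTC). Capitals mark the matched bases. The Hspa1a and Hspb1 sequences are the whole 250 bases before the start site, at chr17:34972157-34972406 on the minus strand and at chr5:135887669-135887918 on the plus strand. The Dnajb6 and Hspe1 sequences are 30 bases around the element, at chr5:29735844-29735873 and chr1:55088053-55088082, both on the plus strand.
Hspa1a: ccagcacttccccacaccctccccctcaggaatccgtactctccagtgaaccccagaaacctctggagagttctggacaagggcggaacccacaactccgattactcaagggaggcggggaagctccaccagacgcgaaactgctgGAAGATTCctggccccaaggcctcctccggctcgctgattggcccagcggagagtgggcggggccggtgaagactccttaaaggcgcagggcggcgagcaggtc
Hspb1: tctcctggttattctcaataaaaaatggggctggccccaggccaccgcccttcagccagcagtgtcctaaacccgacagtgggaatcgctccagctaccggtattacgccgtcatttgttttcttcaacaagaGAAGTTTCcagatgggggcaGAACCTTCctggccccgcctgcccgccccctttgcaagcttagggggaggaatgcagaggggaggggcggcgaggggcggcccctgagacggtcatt
Dnajb6: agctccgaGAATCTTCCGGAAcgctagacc
Hspe1: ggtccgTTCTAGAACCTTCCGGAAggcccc

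Of the 41 genes 32 had a start region in the RefSeq table, and 8 of these (25%) held the motif at any of their start sites, against 14.5% of 27025 genes in the table. Three-unit elements were found in 3 members (9.38%), against 0.514% of all genes. They were Dnajb6, Hspd1 and Hspe1. Hspd1 and Hspe1, which encode the mitochondrial chaperonin and its lid, are transcribed away from each other and share the same 18 bases, in which 3 matches overlap to make 4 units, at chr1:55088059-55088076, at positions -89 to -72 from the Hspe1 start and -144 to -127 from 1 of the Hspd1 starts. The other members with a match were Hspa1a, Hspb1, Hspb6, Dnajb4 and Dnajc10. None of the 4 start regions available for genes that passed the threshold (Hspa2, Hspbap1, Hsf2 and Dnajb10) held a match. Of 8 heat-inducible members with a start region 5 held a match, while Dnajb1, Bag3 and Hspa4l did not. The heat-inducible Hspa8, Hsp90aa1 and Hsp90ab1 had no start region in the table. The lack of a match thus does not tell whether Hsf1 acts on a gene. The median change was 0.23 for the 8 genes with a match and 0.11 for the 24 without, on the log2 scale. A match in these windows is a description of the letters and not a measured site.

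**Figure D1:**
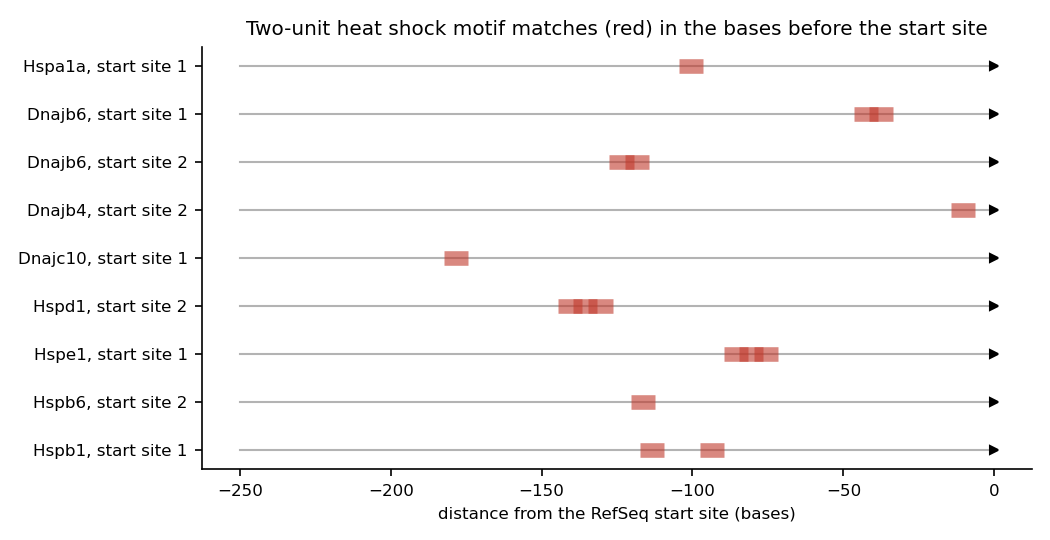
Positions of the two-unit heat shock motif (red) along the 250 bases before the RefSeq start site, for each start site of a member with a match; the horizontal axis is the distance from the start site in bases. Overlapping red blocks are longer elements, of 2 overlapping matches for Dnajb6 and of 3 for Hspd1 and Hspe1.

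Most of the heat shock and J-protein genes did not pass the threshold in the double transgenic livers. Of the 41 genes 2 rose (Hspa2 and Hspbap1), 3 fell (Dnajb10, Dnajc12 and Hsf2) and 36 did not pass. These 5 calls are 12.2% of the genes, against 8.74% of all genes tested (2.49% rising and 6.25% falling), so the share lay near the background. There was no overlap between the groups for 11 of the 41 genes, 26.8%, against 28.4% of all genes. In 7 of them the double transgenic livers were above (15% of all genes) and in 4 below (13.4% of all genes). An unadjusted p below 0.05 was reached by 11 of the 41 genes, against 22.7% of all genes. The median change was 0.16, against 0.08 over all genes, and 29 of 41 changes were above 0 (70.7%, against 58% of all genes). For 32 of the 41 genes (78.0%) the change was smaller than 0.5 in either direction, against 75.1% of all genes. Only the fall of Dnajb10 passed in every alternative and with any 1 array left out. It was the only call without double transgenic replicate 2 or any 1 of the controls, 2 genes passed without double transgenic replicate 3, and 8 passed without double transgenic replicate 1. Blocked by replicate number, 7 genes passed, the same 5 and 2 further rises, Dnajb12 and Hspb6, while 1796 genes passed in all, against 1122 without the block.

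**Figure D2:**
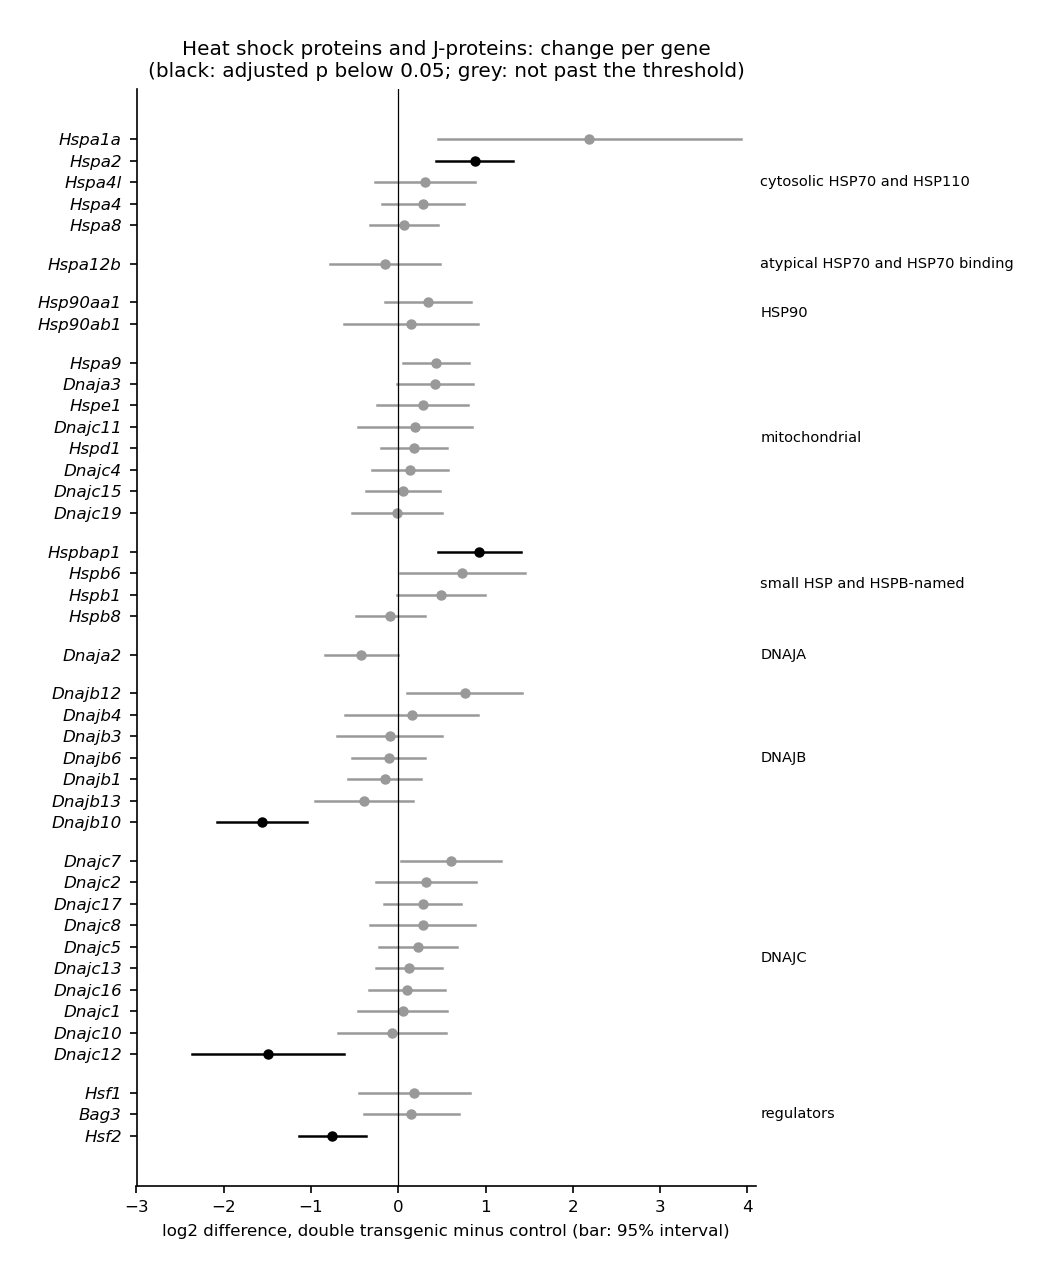
Change of each of the 41 genes on the log2 scale, double transgenic minus control (points), with its 95% confidence interval (bars), grouped by role. The 5 genes past the threshold are black, from Dnajb10 at -1.57 to Hspbap1 at 0.93; Hspa1a has the widest interval, 0.45 to 3.93.

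Among the cytosolic HSP70 and HSP110 genes 1 of 5 measured rose (20%, against 2.49% of all genes) and 4 did not pass. Hspa2, an HSP70 best known from meiosis in the testis, stood at 7.56, 7.86 and 7.86 in double transgenic replicates 1 to 3, against 6.65, 6.90 and 7.09 in control replicates 1 to 3. Every double transgenic value lay above every control value. The change was 0.88 (SE 0.20, adjusted p = 0.0269, limma), a 1.83-fold higher signal. The other kept probe of Hspa2, dimmer and detected on 5 of 6 arrays, changed by 0.35. The call was lost when any array other than double transgenic replicate 1 was left out (adjusted p = 0.0580 to 0.107).

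Hspa8, the constitutive HSC70 that serves most folding and also strips clathrin from vesicles, stood at 14.59, 14.72 and 14.47 in double transgenic livers, against 14.45, 14.54 and 14.58 in controls. The groups overlapped, and the change was 0.07 (95% interval -0.32 to 0.45). The brightest normalized value is 15.27, so little room is left above these levels, while its dimmer probes, at 13.26 to 13.84, changed by -0.07 and 0.15. The HSP110 genes Hspa4 and Hspa4l, which encode nucleotide exchange factors, changed by 0.28 (interval -0.19 to 0.76) and 0.30 (-0.27 to 0.88). Hspa12b, an atypical HSP70 of endothelium, changed by -0.15 (-0.79 to 0.48).

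The stress-inducible HSP70 gene Hspa1a had the largest change of the 41 genes and did not pass. Its levels were 5.43, 7.49 and 9.17 in double transgenic replicates 1 to 3, against 5.17, 4.99 and 5.37 in control replicates 1 to 3. The groups did not overlap, but double transgenic replicate 1 lay only just above the controls while replicate 3 was far above every other array. The group means were 7.37 ± 1.87 and 5.18 ± 0.19 (SD, n = 3 each), a change of 2.19 (SE 0.76, adjusted p = 0.127, limma). It was detected on all 3 double transgenic arrays and on 1 control array, so the size of the change depends on control values near the background, and the gene met the filter of 3 arrays mainly through the group where it is high. With no filter on dim probes its adjusted p was 0.331. The adjusted p-values that follow are all among genes that met the filter. Leaving out double transgenic replicate 1 gave 3.16, past the threshold (adjusted p = 0.00317), as did leaving out replicate 1 of both groups (3.15, adjusted p = 0.0222) and array weights (2.69, adjusted p = 0.00605). Leaving out double transgenic replicate 3 gave 1.29 (adjusted p = 0.235).

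The other probes of Hspa1a and those of Hspa1b, a neighbouring gene of nearly the same sequence, did not pass the detection filter. Hspa1a and Hspa1b may share signal on any of these probes. The 2 dim probes of Hspa1a stood at 5.96 and 5.80 in double transgenic replicate 3, against at most 4.65 in controls. The 2 probes of Hspa1b stood at 6.61 and 5.65 there, against at most 4.86 and 4.77 in controls. All 5 probes of the pair were highest in that array. In double transgenic replicate 1 all 4 dim probes stood between 4.52 and 4.91, against 4.51 to 4.86 in controls. The 7 measured genes of handling and acute stress were Fos, Jun, Junb, Egr1, Ier3, Atf3 and Dusp1. Of these 1, Junb, rose (14.3%, against 2.49% of all genes). The median change was 0.77, against 0.08 over all genes, and 6 changes were above 0 (85.7%, against 58% of all genes). There was no overlap for 4 of the 7 (57.1%, against 28.4% of all genes), with double transgenic livers above in 3 and below in 1. The summed linear signal of the 7 genes was 2626, 3317 and 4474 in double transgenic replicates 1 to 3, in the same order as Hspa1a. In controls it was 3374 to 3585. The part of such stress in the Hspa1a values was not tested.

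**Figure D3:**
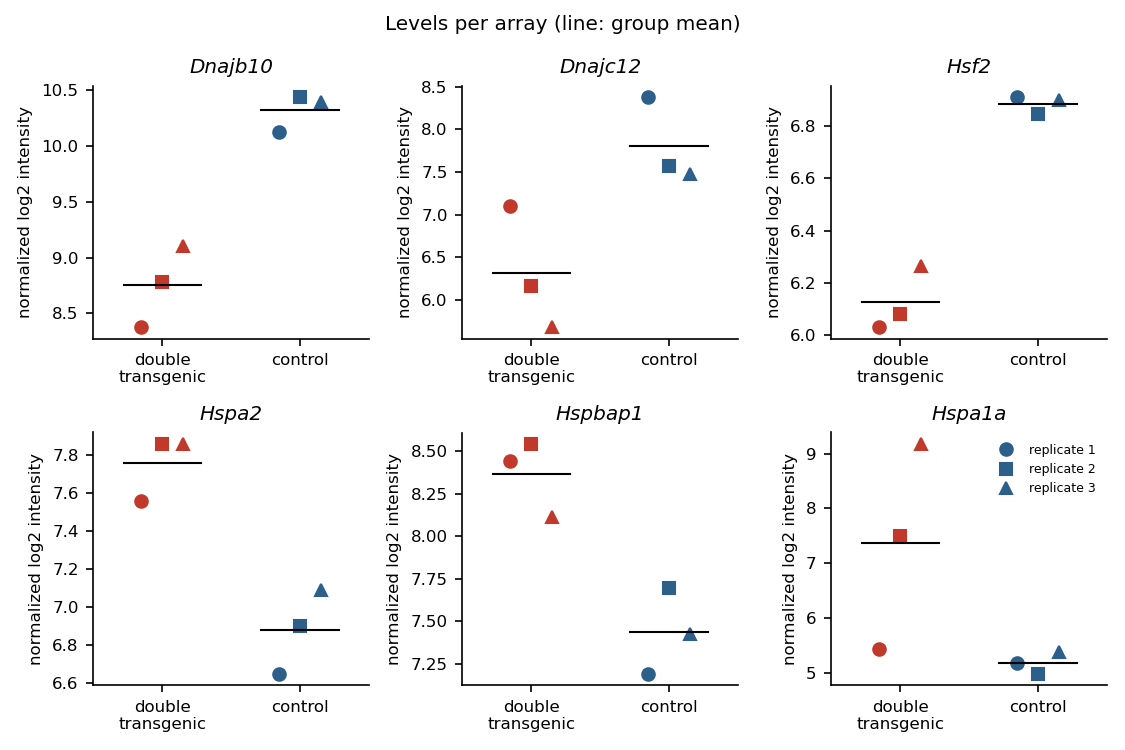
Normalized log2 intensity of the 5 genes past the threshold and of Hspa1a on each array, with double transgenic livers on the left (red) and controls on the right (blue); the marker shape gives the replicate number and the line the group mean. Hspa1a runs from 5.43 to 9.17 among the double transgenic livers, while the groups do not overlap for any of the other 5 genes.

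The HSP90 genes encode the chaperones that hold kinases and steroid receptors ready for activation. Hsp90aa1, the inducible form, stood at 12.25, 11.81 and 11.93 in double transgenic livers, against 11.98, 11.53 and 11.45 in controls, a change of 0.34 (95% interval -0.15 to 0.84). Its other kept probe, dimmer, changed by 0.72. Hsp90ab1, the constitutive form, stood at 13.01, 13.89 and 13.66 in double transgenic livers, against 12.70, 13.65 and 13.77 in controls. Its groups overlapped, and the change was 0.14 (-0.62 to 0.91). In both groups replicate 1 was the lowest for Hsp90ab1, and this held for each of its 3 kept probes.

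None of the 8 mitochondrial genes passed, against 8.74% of all genes. Of their changes 7 were above 0 (87.5%, against 58% of all genes), and the median was 0.19, against 0.08 over all genes. Hspa9 or mortalin, the HSP70 of the matrix that pulls in imported proteins and helps build iron-sulfur clusters, stood at 13.73, 13.68 and 13.65 in double transgenic livers, against 13.18, 13.33 and 13.26 in controls. The groups did not overlap, and the replicates lay close together. The change of 0.43 did not pass (SE 0.16, adjusted p = 0.161, limma), and a dimmer probe gave 0.52. It passed without background correction (adjusted p = 0.0317) and with trended robust moderation (adjusted p = 0.0441). It also passed in the authors' deposited value table (adjusted p = 0.0317), which is nearly the same input as the run without background correction and no separate support. Hspd1, the chaperonin HSP60, changed by 0.18 (interval -0.20 to 0.56), and Hspe1, its lid HSP10, by 0.28 (-0.24 to 0.80). A dimmer probe of Hspd1 changed by -0.02. Dnaja3, the main J-protein of the matrix, changed by 0.43 (-0.01 to 0.86). Dnajc19 and Dnajc15, parts of the import motor of the inner membrane, changed by -0.02 (-0.53 to 0.50) and 0.05 (-0.37 to 0.48). The other kept probes of Dnajc19, far dimmer, changed by -0.66, without overlap between the groups, and by -0.27.

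Small heat shock proteins hold unfolded proteins without using ATP. Hspb1, HSP25 in the mouse, stood at 6.14, 6.11 and 6.64 in double transgenic livers, against 6.08, 5.64 and 5.69 in controls. Every double transgenic value was higher, the lowest by a narrow margin, and the change of 0.49 did not pass (SE 0.22, adjusted p = 0.232, limma). Hspb6, or HSP20, stood at 9.72, 10.68 and 10.70 in double transgenic livers, against 9.20, 9.93 and 9.78 in controls. The lowest double transgenic value, of replicate 1, fell within the control range, and the change of 0.73 did not pass (adjusted p = 0.208). A fit blocked by replicate number took it past the threshold (adjusted p = 0.0289), as did leaving out double transgenic replicate 1 (1.06, adjusted p = 0.0336). Hspb8, which works with Bag3 in sending aggregated proteins to autophagy, changed by -0.09 (interval -0.49 to 0.30). Its other kept probe, near the background, changed by 0.32.

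Hspbap1 entered by its name, since it encodes a JmjC-domain protein that binds HSPB1 and is no chaperone itself. It stood at 8.44, 8.54 and 8.12 in double transgenic livers, against 7.19, 7.69 and 7.43 in controls. All double transgenic values were above all control values, a change of 0.93 (SE 0.21, adjusted p = 0.0277, limma). The other kept probe, near the background and detected on 3 of 6 arrays, changed by -0.19. The call was lost with cyclic loess (adjusted p = 0.0524) and without double transgenic replicate 2 or any 1 of the controls (adjusted p = 0.0522 to 0.112). It was also lost without replicate 1 of both groups (adjusted p = 0.0689).

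The lowest adjusted p was that of Dnajb10, an older symbol of Dnajb2. It encodes HSJ1, a J-protein that binds ubiquitin chains and passes clients to the proteasome and is best known from neurons. Its levels were 8.38, 8.78 and 9.10 in double transgenic replicates 1 to 3, against 10.13, 10.43 and 10.40 in control replicates 1 to 3. The highest double transgenic value lay about 1 log2 unit below the lowest control value. The group means were 8.75 ± 0.36 and 10.32 ± 0.17 (SD, n = 3 each), a change of -1.57 (SE 0.23, adjusted p = 0.00364, limma), and the signal was 2.96-fold lower in the double transgenic livers. With any 1 array left out the change stayed between -1.74 and -1.38, and its adjusted p was at most 0.0224 in every alternative. The array has 1 probe for it.

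Of the 6 other DNAJB genes and Dnaja2, none passed, against 8.74% of all genes. Dnaja2 and Dnajb1 encode the main cytosolic J-proteins that feed Hspa8 in refolding. Dnaja2 stood at 7.98, 7.74 and 7.65 in double transgenic livers, against 8.36, 8.05 and 8.21 in controls, without overlap, and the change of -0.42 did not pass (adjusted p = 0.219, limma). Its other kept probe, close to the background, changed by 0.27. Dnajb1, a textbook heat-inducible gene, changed by -0.16 (interval -0.57 to 0.26). Dnajb6, which keeps polyglutamine proteins from aggregating and has the three-unit element shown above, changed by -0.11 (-0.53 to 0.30). Its other kept probes changed by -0.41, without overlap between the groups, and by -0.23. Dnajb12 stood at 8.07, 8.85 and 8.92 in double transgenic livers, against 7.42, 7.96 and 8.17 in controls, with replicate 1 lowest in both groups. Its change was 0.76 (adjusted p = 0.160), and a fit blocked by replicate number took it past the threshold (adjusted p = 0.0217), as did array weights and leaving out double transgenic replicate 1 alone or replicate 1 of both groups. Dnajb3 and Dnajb13, known from the testis, changed by -0.10 and -0.39. The other kept probe of Dnajb3 changed by 0.15.

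Of 10 DNAJC genes outside the mitochondria 1 fell (10%, against 6.25% of all genes). Dnajc12 encodes a J-protein that works with HSP70 in folding the aromatic amino acid hydroxylases, among them phenylalanine hydroxylase of liver. It stood at 7.10, 6.17 and 5.68 in double transgenic livers, against 8.37, 7.58 and 7.47 in controls. The groups did not overlap, and replicate 1 was the highest in each. The change was -1.49 (SE 0.38, adjusted p = 0.0467, limma), a 2.81-fold lower signal, and the other kept probe changed by -1.24. The call was lost when any array other than double transgenic replicate 1 was left out (adjusted p = 0.0762 to 0.147) and without background correction (-0.78, adjusted p = 0.0750). It was also lost when dim probes were kept in the test (adjusted p = 0.148) and when detection on all 6 arrays was required (adjusted p = 0.0541). Blocked by replicate number, its adjusted p was 0.00481.

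The other DNAJC genes changed by -0.07 to 0.60. Dnajc7, a partner of both HSP70 and HSP90, stood at 10.60, 10.31 and 9.94 in double transgenic livers, against 10.09, 9.40 and 9.57 in controls, with overlap (change 0.60, adjusted p = 0.201, limma). Dnajc2, which sits on the ribosome with an HSP70, changed by 0.32. Dnajc8, a protein of the spliceosome, changed by 0.28, and Dnajc5, which guards exocytosis as cysteine string protein, by 0.23. Dnajc13, of endosomes, changed by 0.12, and Dnajc10, a disulfide reductase of the endoplasmic reticulum, by -0.07.

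The falls of Dnajb10 and Dnajc12 stood beside a fall of the genes of the liver's own cells. All 8 measured of 10 hepatoblast and hepatocyte markers fell, with a median of -2.07, while 6.25% of all genes fell. Their summed linear signal was 21794 to 32138 in double transgenic livers, against 76822 to 102032 in controls. Of 9 measured macrophage markers 8 fell (88.9%), with a summed signal of 1344 to 2380, against 6607 to 7007 in controls. Of 9 erythroid markers 1 fell (11.1%) and 8 did not pass, with a summed signal of 117928 to 136891, against 153440 to 156361 in controls. Of 8 measured endothelial and mesenchymal markers 2 fell (25%) and 6 did not pass. Their summed signal was 13218 to 14344, against 21240 to 30947 in controls. Of 6 megakaryocyte markers none passed, against 8.74% of all genes. The summed signal of this set was 5297 to 11666, against 8865 to 13385 in controls, so its ranges overlapped. As a check of the labelled tissue, 8 of 10 listed hepatoblast markers and 9 of 10 listed erythroid markers passed the detection filter. The offset of the background correction leaves no value at 0, so a marker at 0 could not be looked for. In a whole liver, fewer cells of a type and less RNA per cell cannot be told apart. The part of the cell mixture in the falls of single J-proteins was not tested.

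Of the 2 heat shock factors Hsf2 fell and Hsf1 did not pass. Hsf1 stood at 11.11, 11.60 and 11.45 in double transgenic livers, against 10.60, 11.46 and 11.55 in controls. The groups overlapped, and the change was 0.18 (95% interval -0.46 to 0.82). Hsf2, a factor of development and gamete formation that can pair with Hsf1, stood at 6.03, 6.08 and 6.26 in double transgenic livers, against 6.91, 6.84 and 6.90 in controls. All double transgenic values were below all control values, with little spread in either group, and the change was -0.76 (SE 0.17, adjusted p = 0.0263, limma). The other kept probe of Hsf2, near the background, changed by -0.36. The call was lost when any array other than double transgenic replicate 1 was left out (adjusted p = 0.0505 to 0.114), without background correction (-0.33, adjusted p = 0.0607) and with trended robust moderation (adjusted p = 0.0550). The difference between the changes of the 2 factors was not tested. Bag3, which links HSP70 to the small heat shock proteins, stood at 9.502, 10.003 and 9.793 in double transgenic livers, against 9.193, 9.887 and 9.767 in controls, a change of 0.15 (-0.40 to 0.70).

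Textbook targets of Hsf1 showed no shared rise past the threshold. Of 14 such genes 11 were measured under these symbols, and by limma none passed, against 8.74% of all genes, with 1, Hspa1a, at an unadjusted p below 0.05 (9.09%, against 22.7% of all genes). Their median change was 0.18, against 0.08 over all genes, and 10 of 11 changes were above 0 (90.9%, against 58% of all genes), with Dnajb1 the exception. The highest level lay in a double transgenic array for 10 of the 11 genes (90.9%), against 59.1% of all genes. The same held for 34 of the 41 genes described here (82.9%), so it was not particular to these targets. For Hspa1a, Hspb1, Hspa4l and Dnajb4 the highest array was double transgenic replicate 3. Dnajb4 stood at 6.48, 6.48 and 7.38 in double transgenic livers, against 7.02, 6.82 and 6.02 in controls, so its other values lay within the control range.

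**Figure D4:**
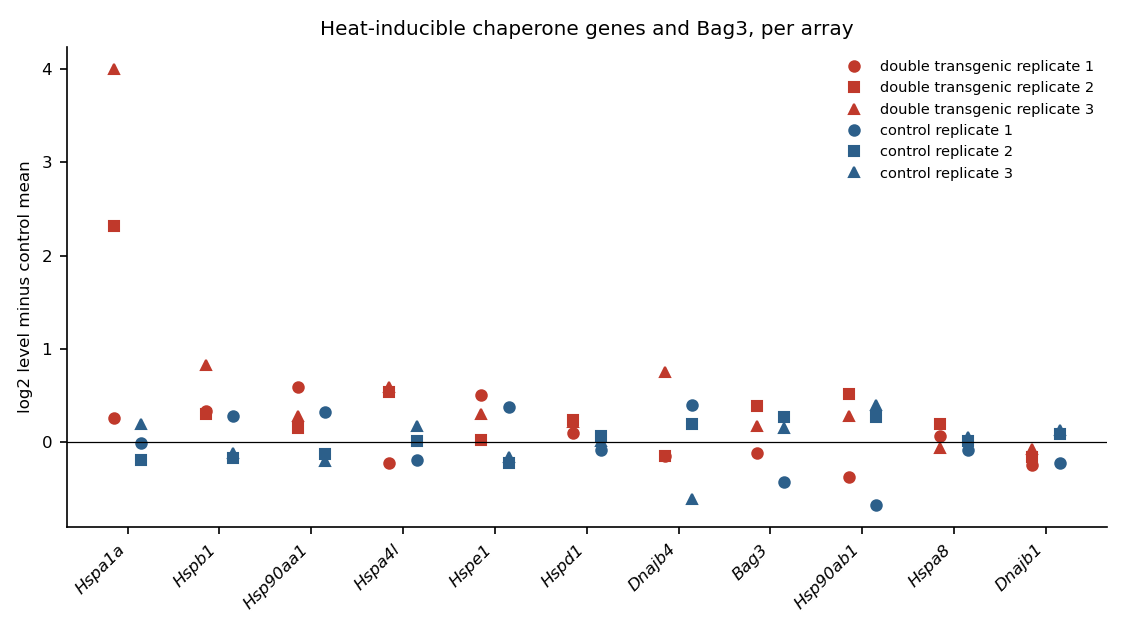
Log2 level of 11 heat-inducible genes on each array, minus the control mean of that gene, with double transgenic livers in red on the left of each pair and controls in blue. Hspa1a in double transgenic replicates 2 and 3 stands far above all other points, which lie within 1 log2 unit of the control mean.

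The arrays numbered 1 lay at the low or the high end of both groups for many of these genes. Replicate 1 was the lowest of its group in both groups for 17 of the 41 genes (41.5%, against 24.8% of all genes) and the highest in both for 13 (31.7%, against 26.5%). The low ones included Hsp90ab1, Hsf1, Bag3, Hspb6 and Dnajb12, and the high ones Hsp90aa1, Hspe1, Dnajc19, Dnajc12 and Dnajc10. Each gene's distance from its group mean was compared between arrays of the same number, and over the 41 genes Pearson's r was 0.57 for replicate 1, 0.58 for replicate 2 and 0.25 for replicate 3. These are correlations across genes, which share their arrays and are not independent. Arrays of different numbers were not compared over the 41 genes. Over all genes the same-number values were 0.53, 0.28 and 0.20. The highest with another number were -0.36, 0.37 and 0.19, so only replicate 1 stood clearly apart. Control replicate 1 was the only Vav-iCre control, so within the controls replicate number and genotype cannot be told apart. Without replicate 1 of both groups 7 genes passed, with Hspa1a, Hspb6 and Dnajb12 added and Hspbap1 lost.

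**Figure D5:**
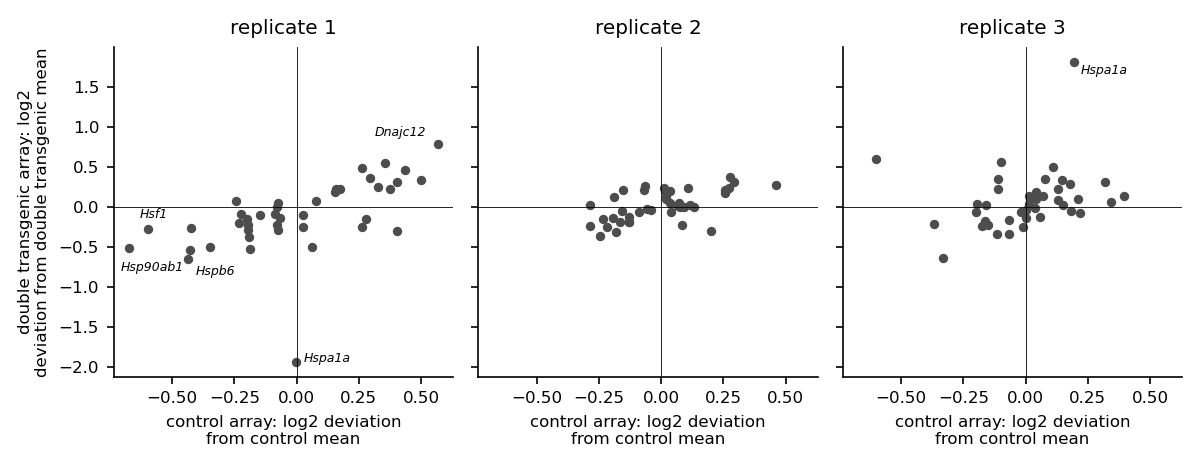
Deviation of each of the 41 genes from its group mean on the log2 scale, with the double transgenic array on the vertical axis and the control array of the same replicate number on the horizontal axis. In replicate 1 Dnajc12 is high in both groups and Hsp90ab1, Hsf1 and Hspb6 are low in both; Hspa1a is the point at the bottom for replicate 1 and at the top for replicate 3.

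Chaperonins and co-chaperones outside these names were measured for 46 of 47 listed genes. By limma none passed, against 8.74% of all genes, and 4 (8.70%) had an unadjusted p below 0.05, against 22.7% of all genes. The median change was 0.16, against 0.08 over all genes, and 37 changes (80.4%) were above 0, against 58% of all genes. All 8 subunits of the cytosolic chaperonin that folds actin and tubulin had changes above 0, from 0.08 to 0.70. Its subunit Cct2 was the highest at 0.70 (SE 0.25, adjusted p = 0.140). Stip1, which bridges HSP70 and HSP90, stood at 0.00 (SE 0.21), and Ahsa1, an activator of the HSP90 ATPase, at 0.05 (SE 0.17). Cdc37, which loads kinases onto HSP90, changed by 0.39 (SE 0.24). Chordc1, another HSP90 partner, changed by 0.22 (SE 0.26), and Stub1, the ubiquitin ligase that sends chaperone clients to degradation, by -0.35 (SE 0.21). The largest change was in Tsc1, known as a co-chaperone of HSP90 besides its part in growth control, at 1.38 (SE 0.42, adjusted p = 0.0864). Its levels were uneven, at 5.98, 7.24 and 7.86 in double transgenic replicates 1 to 3, against 5.48, 5.84 and 5.62 in control replicates 1 to 3. Double transgenic replicate 1 lay only just above the controls.

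Some chaperone genes are on the array under older names. With symbols updated through RefSeq 49 genes met the same naming rule, and the 5 calls were of the same genes. None of the 8 genes this added passed. Among them were Hsph1, an inducible HSP110 listed as Hsp105, at 0.35 (SE 0.18, adjusted p = 0.299, limma) and Dnajc28, listed as ORF28, at 1.02 (SE 0.29, adjusted p = 0.0644). Dnajc21, a J-protein of ribosome maturation, changed by 0.29, Dnajc27 by 0.43 and Hspbp1, an exchange factor of HSP70, by -0.02.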

How the data were processed

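The deposited table holds a linear signal intensity per probe and array, not normalized between arrays, and a detection p-value. The column headers do not say what the detection p-value was computed against. The background correction took it to be against negative controls. The submitters' processing notes name GenomeStudio, version not given in the sources used here. A value table deposited by the authors, also of intensity, differed from quantile normalized signal by at most 0.303% and served as an alternative. It is thus nearly the same input as the alternative without background correction. In R 4.3.3 with limma 3.58.1, background was corrected with neqc from the detection p-values (offset 16), followed by quantile normalization and log2. Of 45281 probes 17855 had a detection p below 0.05 on at least 3 arrays, and the brightest per file symbol gave 12833 genes. Groups were compared in limma (lmFit, eBayes), two-sided, and p-values were adjusted by Benjamini-Hochberg. The fit was tested on simulated data with independent noise, without the shared deviations of same-numbered arrays. The rule for members was checked on a few fixed symbols.

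The members, lists and tests were chosen with earlier results of these data known. The named genes were all members past the threshold, in each role group the member with the highest mean, largest change and lowest adjusted p, the heat-inducible members, Hsf1, Hsf2 and Bag3; other genes were named after their values were seen. The titles number both groups 1 to 3. Across all genes, deviations of same-numbered arrays correlated at 0.53, 0.28 and 0.20, each above 0.1, so the numbers served as a block in an alternative. The highest correlation with an array of another number was -0.36, 0.37 and 0.19, above the same-number value for replicate 2. Of the RefSeq start regions (GRCm38.p6), 32 of 41 genes matched by symbol.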

Additional observations from a re-analysis of the deposited data

Results flagged for a closer look

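Hspa1b lay below the detection filter and so entered no comparison, but both of its probes were detected on double transgenic replicate 3, at 6.61 and 5.65, and on no control array, where the highest values were 4.86 and 4.77. The authors' deposited detection p-values on that array were 0.00107 and 0.00641. The single probe of Dnajc18 was detected on double transgenic replicate 1, at 5.23, against at most 5.17 in controls, with the authors' deposited detection p-value at 0.0406. In the other direction, probes of Dnaja1 (5.57) and Dnajc14 (5.34) were detected on control replicate 1, and probes of Dnajc14 (5.21), Dnajc6 (5.22) and Hspa12a (5.21) on control replicate 3, with none of them detected on a double transgenic array. Over 19 undetected symbols and 6 arrays a detection p-value below 0.05 occurs by chance for some.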

How the results depend on the processing

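Members past the threshold numbered 1 to 8 with 1 array left out (0 to 5 rising, 1 to 3 falling), 10 with array weights (7 rising) and 2 with the mean of kept probes (0 rising). Of the members, 1 rose with cyclic loess, 4 rose with the replicate block or without replicate 1 of both groups, and 1 fell without background correction or in the authors' value table. All genes past the threshold numbered 569 to 1428 with 1 array left out (569 without control replicate 2, 609 without control replicate 3 and 631 without double transgenic replicate 2), 2829 with array weights, 1796 with the replicate block and 1861 without replicate 1 of both groups. Chaperonins and co-chaperones past the threshold numbered 0 to 2 with 1 array left out, 1 without background correction, in the authors' value table and with the replicate block, 4 with array weights and 2 without replicate 1 of both groups. The cause was not tested. The members' median change stayed between 0.07 and 0.24 in every alternative run, while that of all genes ran from -0.001 to 0.14. Both medians were lowest with cyclic loess and highest with median scaling, so the size of the members' median depends on the normalization. The size of the change with 1 array left out was followed only for part of the members. These were the members past the threshold, the leading members of each role group, the heat-inducible members, Hsf1, Hsf2 and Bag3. Among them the sign turned for Bag3 (-0.061 to 0.29), Dnajb4 (-0.14 to 0.36) and Hsf1 (-0.12 to 0.35). It also turned for Hsp90ab1 (-0.19 to 0.40) and Hspa12b (-0.43 to 0.023), and none of these genes had passed. Whether the sign turned for other members, such as Dnajb3, Dnajc10, Dnajc15 and Dnajc19, was not tested. With probes averaged, Hspa2 (0.61, adjusted p = 0.0832), Hspbap1 (0.37, adjusted p = 0.262) and Hsf2 (-0.56, adjusted p = 0.136) did not pass. Counting Dnajc3a as a member, chosen after seeing the data, left 5 calls. The number of arrays limits precision, and dim genes lie near the background.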
